A study of Canis lupus familiaris with 18 samples.

Results

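The transforming growth factor beta (TGF-beta) and bone morphogenetic protein (BMP) ligands and the SMAD proteins that carry their signals were examined in 18 canine primary osteosarcomas, malignant bone tumours whose cells deposit bone matrix. The members were 10 genes, namely the ligands TGFB1, TGFB2, TGFB3, BMP2, BMP4 and BMP6 and the SMADs SMAD3, SMAD6, SMAD7 and SMAD9, among 15115 genes that the platform annotation gives as a single symbol. They were taken as every probe set that the annotation assigns to exactly 1 of these symbols, which gave 18 of the 42924 probe sets that are not controls. Of these, 14 probe sets of 9 genes were bright enough to be tested, with a mean of at least 6.15 on the scale of log2(signal + 16). The only probe set of SMAD7, and 1 probe set each of SMAD3, SMAD6 and TGFB3, lay below that level and are described by level alone.

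The tumours fell into 2 groups of 9 dogs, with a normal or an increased serum concentration of alkaline phosphatase (ALP), an enzyme that reaches the blood mainly from bone and liver. Each tumour was a separate primary osteosarcoma, frozen when the tumour was operated on, biopsied or examined after death, and was measured on 1 Affymetrix canine array. No normal bone and no treated group were included, and the labels give neither the dogs' ages or breeds nor which tumour came from which procedure. Differences were taken as increased minus normal ALP. The added 16 makes the changes of dim probe sets look smaller than they are. Levels of different probe sets are not comparable with each other, because probes differ in how strongly they bind.

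TGF-beta and BMP ligands are secreted dimers that bind pairs of serine and threonine kinase receptors at the cell surface. TGF-beta receptors mainly phosphorylate SMAD2 and SMAD3, BMP receptors mainly phosphorylate SMAD1, SMAD5 and SMAD9 (also called SMAD8), and either kind then enters the nucleus with SMAD4. SMAD6 and SMAD7 are inhibitory SMADs, induced by the signals they then block. In bone, BMPs drive mesenchymal cells towards the osteoblast, the cell that makes bone, and TGF-beta is stored in the matrix in latent form and released when osteoclasts, the cells that resorb bone, dissolve it.

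The labelled tissue was checked against osteoblast markers. Of 16 markers, 13 were bright enough to be measured, with mean levels between 6.25 and 14.91. COL1A1, which encodes the main bone collagen, lay between 12.75 and 14.88 in all 18 tumours, while the matrix protein gene IBSP ran from 4.85 to 14.21. In whole tumours, fewer cells of a type and less RNA per cell cannot be told apart. Array medians of the deposited values lay between 6.25 and 6.31. Increased ALP replicates 3 and 6 stood apart, with BioB spike-in controls at 10.3 and 9.89 against at most 9.21 in the other arrays, and with a spread of the deposited values of 2.27 and 2.25 against at least 2.32 in the others. The difference between 3' and middle probe sets of actin, a measure of RNA length, was 1.39 ± 0.17 (SD, n = 9) with normal and 1.79 ± 0.29 (SD, n = 9) with increased ALP. P-values measure the spread between these tumours, and 9 arrays per group limited the precision of every comparison.

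**Figure D1:**
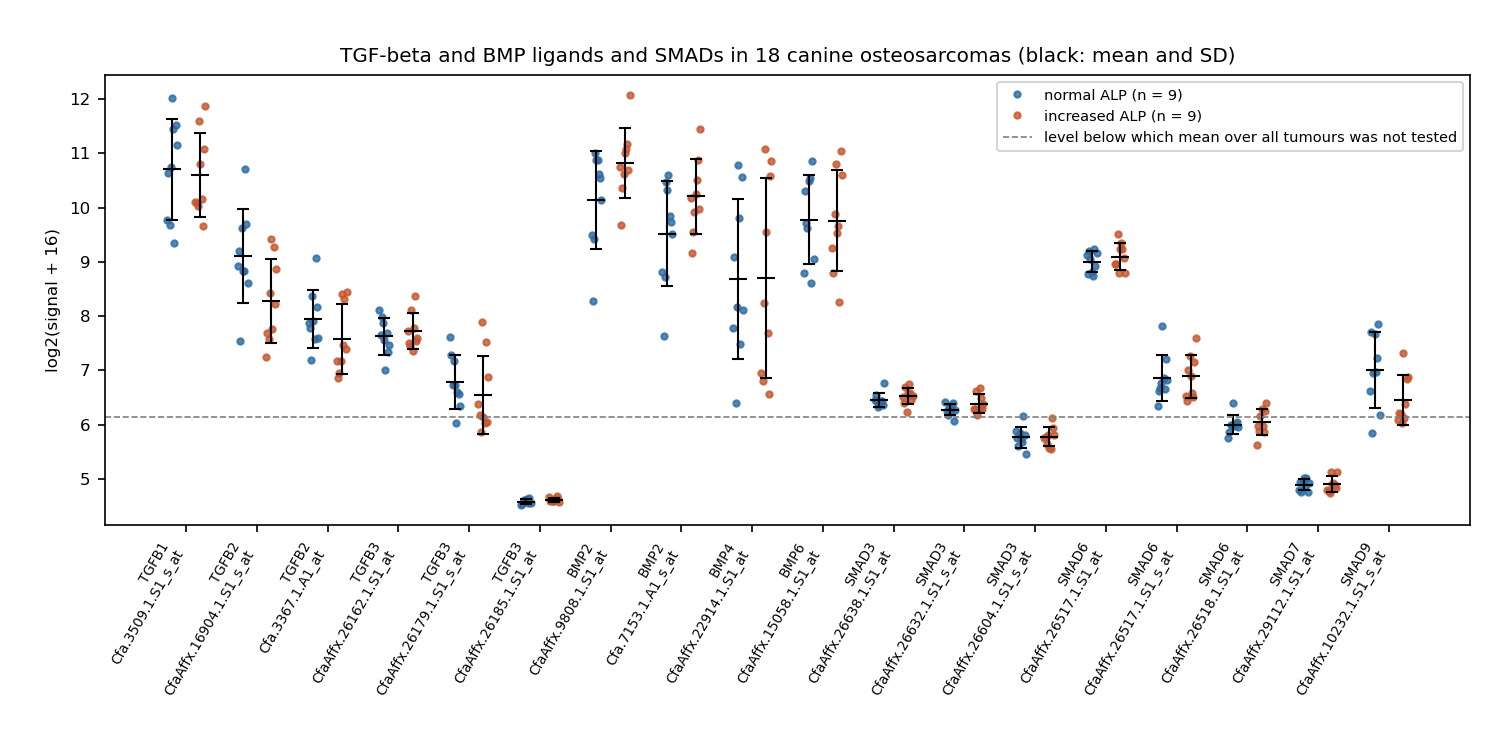
Levels of the 18 member probe sets on the scale of log2(signal + 16), with 1 point per tumour (blue, normal ALP; orange, increased ALP) and the mean and SD of each group of 9 in black. Values of the groups overlap at each of the probe sets above the dashed line at 6.15, and BMP4 spans the widest range, from 6.40 to 11.08, while SMAD3 and SMAD7 spread over less than 1 unit.

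TGFB1 (NCBI gene 403998), the ligand most abundant in bone matrix, varied widely between tumours, and its group means lay within that spread. At its 1 probe set, an _s_at, the normal ALP tumours had a lowest level of 9.34, a median of 10.75 and a highest of 12.03, and the increased ALP tumours 9.67, 10.16 and 11.87. The group with normal ALP held both the highest tumour, replicate 5, and the lowest, replicate 7, and the signal spanned 6.56-fold over all tumours. The groups differed by -0.11 ± 0.38 (SE, 95% interval -0.90 to 0.68; limma adjusted p = 0.978). As a fold of the signal, increased over normal, the interval ran from 0.536 to 1.61.

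TGFB2 (NCBI gene 488596), a ligand of developing skeleton and many other tissues, was lower on average with increased ALP at both of its probe sets, but neither difference passed the test. At its _s_at probe set the lowest, median and highest levels were 7.54, 8.92 and 10.71 with normal ALP and 7.25, 8.23 and 9.42 with increased ALP. The mean of the normal group exceeded 7 of the 9 tumours of the other group, and the ranges overlapped. The means were 9.11 ± 0.87 and 8.28 ± 0.78 (SD, n = 9 each), and they differed by -0.83 ± 0.37 (SE, 95% interval -1.60 to -0.06). In limma its p was 0.0354 before and 0.776 after adjustment. Exact permutation of the tumours, two-sided, gave 0.0490. At its _at probe set the levels ran from 7.19 to 9.07 with normal and from 6.86 to 8.45 with increased ALP, and the difference was -0.37 ± 0.27 (SE). The highest TGFB2 level at either probe set belonged to normal ALP replicate 7, the tumour with the least TGFB1.

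TGFB3 (NCBI gene 490796), best known from palate and wound healing, had the narrowest spread of the ligands at its brighter probe set. This _at probe set lay between 7.01 and 8.38, with medians of 7.66 with normal and 7.61 with increased ALP, and the groups differed by 0.09 ± 0.16 (SE, 95% interval -0.24 to 0.42). The _s_at probe set spread over more, from 5.86 to 7.90, with a difference of -0.24 ± 0.27 (SE). Both differences lay within the spread between tumours, with adjusted p-values of 0.942 and 0.908 in limma. The other _at probe set was below the level tested in every tumour, at 4.53 to 4.68.

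BMP2 (NCBI gene 477162), a strong inducer of bone formation, was higher on average with increased ALP at both of its probe sets, without passing the test. At the _at probe set the lowest, median and highest levels were 8.28, 10.54 and 11.01 with normal ALP and 9.68, 10.75 and 12.07 with increased ALP. Normal ALP replicate 2 was lowest and increased ALP replicate 9 highest, a 14.5-fold span of the signal, and 8 of 9 tumours with increased ALP lay above the mean of the normal group. The groups differed by 0.69 ± 0.35 (SE, 95% interval -0.05 to 1.42). The limma adjusted p was 0.830, and exact permutation of the tumours, two-sided, gave 0.0809. The _s_at probe set gave 0.69 ± 0.37 (SE), and since both read the same gene with r = 0.99 across tumours they are 1 observation rather than 2.

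BMP4 (NCBI gene 490695), a ligand expressed by cells of the osteoblast lineage, was the most variable member. At its 1 probe set the lowest, median and highest levels were 6.40, 8.17 and 10.78 with normal ALP and 6.57, 8.23 and 11.08 with increased ALP. The signal spanned 25.3-fold within the first group and 27.2-fold within the second, and 99.2% of the tested probe sets had a smaller SD than its 1.61. The group means were nearly equal, at 8.69 ± 1.47 and 8.70 ± 1.84 (SD, n = 9 each). The difference of 0.01 ± 0.73 (SE) had an interval from -1.51 to 1.54, which as a fold of the signal ran from 0.351 to 2.91.

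BMP6 (NCBI gene 478715), a ligand best known for the control of hepcidin and also active in bone, ran from 8.62 through a median of 9.71 to 10.86 with normal ALP and from 8.26 through 9.66 to 11.04 with increased ALP at its 1 probe set. The lowest and the highest tumour, replicates 7 and 8, both had increased ALP. The groups differed by -0.02 ± 0.39 (SE, 95% interval -0.84 to 0.80; limma adjusted p = 0.997). Its SD exceeded that of 93.5% of the tested probe sets, and the share was 93.2% for the _at probe set of BMP2 and 94.5% for the _s_at probe set of TGFB2.

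SMAD3 (NCBI gene 610902), which passes on TGF-beta signals, hardly varied at its 2 tested probe sets, but both were dim. Their means over all tumours were 6.49 and 6.33, little above the level needed for testing, where the added 16 makes changes look smaller. Whether SMAD3 itself varied as little cannot be told from them. Its _at probe set lay between 6.33 and 6.77 with normal and between 6.24 and 6.76 with increased ALP, a 1.56-fold span of the signal, and only 7.38% of the tested probe sets had a smaller SD. The differences at its 2 tested probe sets were 0.07 ± 0.07 and 0.11 ± 0.07 (SE). These probe sets correlated with each other across tumours at r = 0.63, and at 0.34 without increased ALP replicates 3 and 6, so their small variation was shared only in part. Another _s_at probe set was below the level tested on average, at 5.77 ± 0.18 (SD, n = 18).

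SMAD6 (NCBI gene 487612), an inhibitory SMAD that mainly restrains BMP signals, gave different pictures at its 2 tested probe sets. The brighter, an _at probe set, lay between 8.74 and 9.52, with medians of 9.05 with normal and 9.06 with increased ALP. The other, an _s_at probe set, was dimmer and more variable, from 6.34 to 7.82, with medians of 6.77 and 6.90. The probe sets ordered the tumours in opposite ways, with r = -0.40, although the annotation gives both to SMAD6. Neither differed between the groups beyond the spread of the tumours, at 0.09 ± 0.12 and 0.03 ± 0.19 (SE). The remaining SMAD6 probe set, too dim to be tested at 6.02 ± 0.21 (SD, n = 18), followed the _s_at probe set with r = 0.82 and the brighter _at probe set with r = -0.28. The suffix _s_at means that the probes can match more than 1 transcript. SMAD6 and SMAD3 are neighbouring genes in the RefSeq annotation of the assembly UU_Cfam_GSD_1.0. With the 2 tested SMAD3 probe sets, the _s_at probe set of SMAD6 stood at r = -0.24 and -0.20. The brighter _at probe set stood at 0.57 and 0.64 with them, and at 0.35 and 0.34 without increased ALP replicates 3 and 6. Which transcripts each probe set reads was not tested.

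SMAD9 (NCBI gene 486006), which passes on BMP signals, was lower on average with increased ALP. At its 1 probe set the lowest, median and highest levels were 5.84, 6.98 and 7.86 with normal ALP and 6.03, 6.22 and 7.33 with increased ALP. The lowest tumour of all had normal ALP, so the ranges overlapped, but the mean of the normal group exceeded 8 of the 9 tumours with increased ALP. The difference was -0.55 ± 0.26 (SE), with a 95% interval whose upper end lay just below 0. In limma its p was 0.0477 before and 0.810 after adjustment, and exact permutation, two-sided, gave 0.0662. SMAD7 (NCBI gene 490570), the inhibitory SMAD that mainly restrains TGF-beta receptors, lay between 4.74 and 5.14 in all tumours, too dim for any statement about it.

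Taking the members together, 0 of the 14 probe sets passed an adjusted p of 0.05 in limma, and among all 25754 probe sets tested 0.0% passed. At an unadjusted p under 0.05 there were 2 members, TGFB2 and SMAD9, both lower with increased ALP, against 1582 or 6.14% of all probe sets in either direction, 4.22% lower and 1.92% higher. The share of 2 in 14 lies above that background by little more than 1 probe set. Of the 14 differences, 8 were above 0 and 6 below.

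The fit without increased ALP replicates 3 and 6 left 0 members at an unadjusted p under 0.05, as did the fit with the actin difference as a covariate and the fits without any 1 of replicates 7 and 8 with normal ALP and replicates 1, 3 and 6 with increased ALP. Without replicate 4 with normal ALP, or without replicate 2 with increased ALP, 2 member probe sets reached that threshold, both higher with increased ALP. The widest positive differences with 1 array left out were those of the 2 BMP2 probe sets, up to 0.83 and 0.82. These read the same gene and are 1 observation. TGFB2 stood at -0.66 and SMAD9 at -0.47 without increased ALP replicates 3 and 6.

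**Figure D2:**
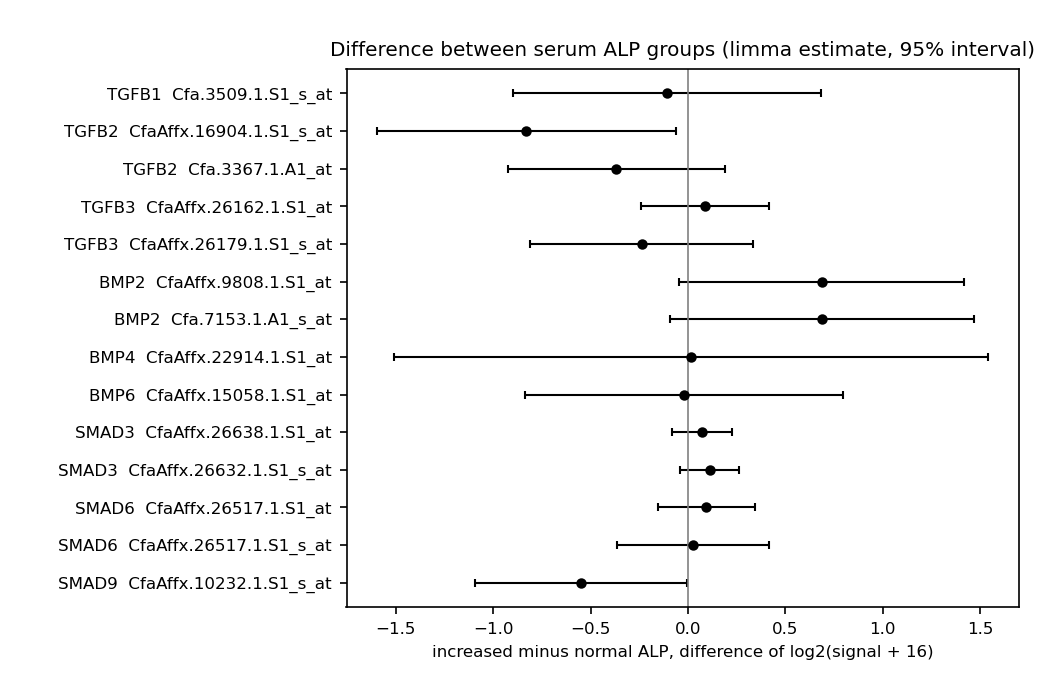
Difference between tumours with increased and normal serum ALP for the 14 tested member probe sets, as limma's estimate of log2(signal + 16) with its 95% interval. The _s_at probe set of TGFB2 lies lowest at -0.83 and both BMP2 probe sets highest at 0.69, and 2 intervals end below 0, those of this TGFB2 probe set and of SMAD9.

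The genes around the members were described next, from 6 lists of 83 other genes of the pathway. Of their 102 tested probe sets, 0 passed an adjusted p of 0.05 in limma. An unadjusted p under 0.05 was reached by 7 of the 102, 3 higher and 4 lower, against 1582 of all 25754 (6.14%). With 1 probe set per gene, 56 genes were measured, of which 27 were above 0 and 29 below, with a median difference of -0.03. Over all 10717 genes tested, 5721 were above 0 and 4996 below, with a median of 0.01. Among the other ligands 6 of 7 measured genes were above 0, with a median of 0.07, and the widest differences were those of INHBA, the activin A subunit, at -0.65 ± 0.40 (SE) and BMP7 at 0.44 ± 0.45 (SE), with AMH at 0.15 and GDF11 at 0.07. With the actin difference as a covariate 2 of these 7 ligand genes were above 0 and 5 below, with a median of -0.15. Among the receptors 6 of 8 were above 0, with a median of 0.14. The endothelial co-receptor ENG stood at 0.40 ± 0.33 (SE), the type I receptor ACVRL1 at 0.29, and the activin receptors ACVR2A and ACVR2B at 0.19 and 0.11.

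Among the other SMADs and their partners 4 of 9 measured genes were above 0 and 5 below. SMAD5, which passes on BMP signals as SMAD9 does, was at 7.37 ± 0.38 (SD, n = 9) with normal and 6.89 ± 0.30 (SD, n = 9) with increased ALP, a difference of -0.48 ± 0.16 (SE) with an adjusted p of 0.637 in limma. The third member of that class, SMAD1, stood at -0.26 ± 0.18 (SE). SMAD2, which responds to TGF-beta, stood at 0.19 and the ubiquitin ligase SMURF2 at 0.29. None of these differences passed the test.

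Of 25 genes of extracellular control, which bind, store or release the ligands, 17 were measured, with 8 above 0 and 9 below. FSTL1, a secreted protein that binds BMPs, was at 10.36 ± 0.76 (SD, n = 9) with normal and 8.99 ± 1.08 (SD, n = 9) with increased ALP. Its difference of -1.37 ± 0.41 (SE) was the widest of any pathway gene, with an unadjusted p of 0.00361 and an adjusted p of 0.608 in limma. The smallest unadjusted p of any probe set was 2.6e-05, and its adjusted p was also 0.608. LTBP1, which holds latent TGF-beta in the matrix, stood at 0.68 ± 0.28 (SE), THBS1, which activates it, at 0.70 ± 0.32 (SE), and the BMP antagonist CHRDL2 at 0.17.

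Of 8 genes that BMP signals induce, the 7 measured ones were all below 0, with a median of -0.22 and a range from -0.45 to -0.09. MSX1, a homeobox factor, stood at -0.45 ± 0.18 (SE, adjusted p = 0.746 in limma), ID4 at -0.25, ATOH8 at -0.22 and ID3 at -0.20. Each difference failed the test on its own, and 6 of 7 were below 0 with array weights and 5 of 7 with the actin difference as a covariate. The 7 genes were measured in the same tumours and are not independent. Of the genes that TGF-beta induces, 3 of 8 were above 0 and 5 below, with TGFBI at -0.69 ± 0.47 (SE), PMEPA1, a feedback inhibitor, at -0.39, FN1 (fibronectin) at -0.15 and NOX4 at 0.32.

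Across tumours, regardless of ALP group, 3 of the ligands rose and fell together. Each measured member was represented by its brightest probe set, which gave 36 pairs, tested with 100000 permutations and adjusted over the 36. In 5 pairs (13.9%) the adjusted p of Pearson's r was under 0.05, 4 positive and 1 negative, while 1.52% of the 57421686 pairs of all tested genes had an r at least as far from 0 as the smallest called here, and 0.928% a positive one. TGFB1 and BMP4 correlated most closely, with r = 0.89 (p = 1e-05, the smallest the permutations can give, adjusted p = 0.00018) and Spearman's rho = 0.87 (permutation p = 1e-05). Without the 2 tumours farthest from the median of TGFB1, r was 0.90. Within the groups of 9 it was 0.88 with normal ALP and 0.94 with increased ALP.

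BMP4 and BMP6 correlated at r = 0.85 (permutation p = 1e-05, adjusted p = 0.00018) and rho = 0.81 (permutation p = 4e-05). Their r was 0.82 without the 2 tumours farthest in BMP4, 0.77 within normal ALP and 0.91 within increased ALP. TGFB1 and BMP6 correlated at r = 0.78 (permutation p = 0.00023, adjusted p = 0.00276) and rho = 0.73 (permutation p = 0.00091), with 0.74 without the 2 tumours farthest in TGFB1. Of all other tested genes, 99.972% had a lower r with TGFB1 than BMP4 had. The order of the tumours restates these correlations and is no further support for them. Of the 6 tumours with the highest level of each of these 3 genes, 5 were shared, replicates 5, 6 and 8 with normal ALP and replicates 4 and 9 with increased ALP. Of the 6 lowest, 3 were shared, replicate 7 with normal ALP and replicates 2 and 7 with increased ALP. High and low tumours of the trio thus came from both ALP groups.

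**Figure D3:**
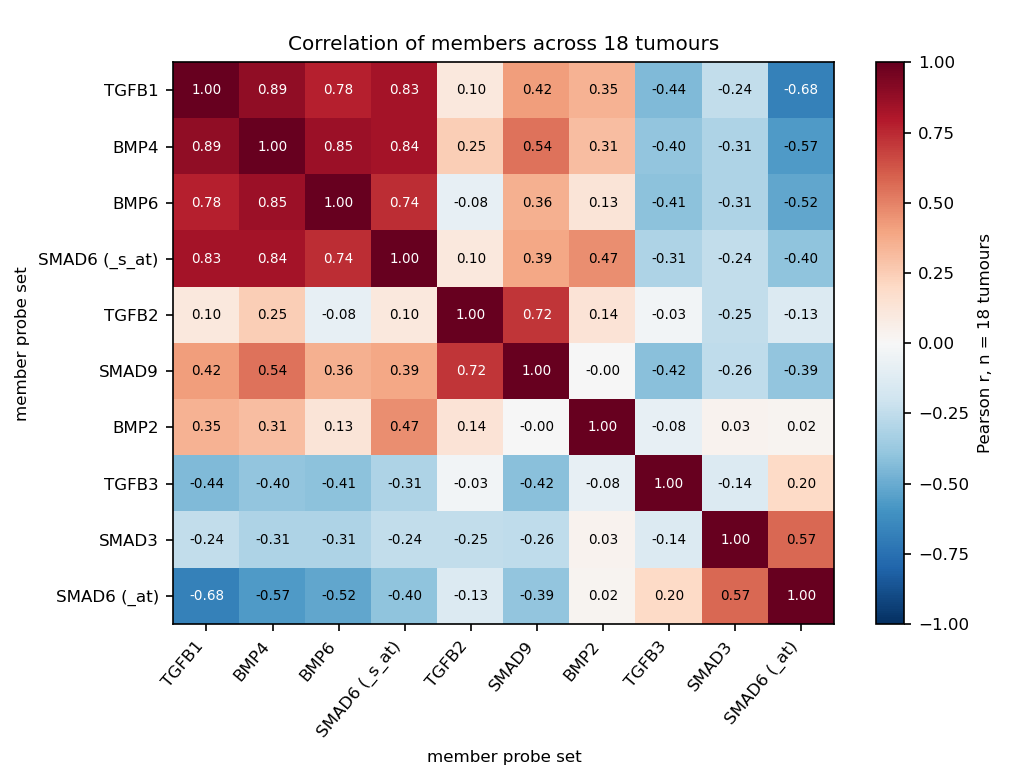
Pearson's r between members across 18 tumours, each member by its brightest probe set, with SMAD6 shown by both of its tested probe sets. TGFB1, BMP4, BMP6 and the _s_at probe set of SMAD6 form a block with r between 0.74 and 0.89, TGFB2 pairs with SMAD9 at 0.72, and the _at probe set of SMAD6 runs the opposite way at -0.68 with TGFB1.

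TGFB2 kept apart from that block and paired with SMAD9. Their r was 0.72 (permutation p = 0.00068, adjusted p = 0.00612) and rho 0.77 (permutation p = 0.00025), and r was 0.74 without the 2 tumours farthest in TGFB2. It was 0.62 within normal ALP (exact permutation p = 0.0704) and 0.70 within increased ALP (exact permutation p = 0.0359). The correlation of TGFB2 with TGFB1 was 0.10, with BMP4 0.25 and with BMP6 -0.08. BMP2 was in no called pair, with r = 0.35 with TGFB1, 0.31 with BMP4 and 0.13 with BMP6. TGFB3 and SMAD3 were in none either, and TGFB3 stood at -0.44 with TGFB1 (adjusted p = 0.233 over the permutation tests of the 36 pairs). Without increased ALP replicate 4 the called pairs were 8 in place of 5, the added ones being TGFB1 with TGFB3, TGFB3 with BMP4, and BMP4 with SMAD9. The pairs with TGFB3 used its brighter probe set. Its _s_at probe set stood at 0.005 with TGFB1 and 0.05 with BMP4 over all 18 tumours.

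The relation of SMAD6 to the ligands turned with the probe set. By the _at probe set, r was -0.68 with TGFB1 (permutation p = 0.00247, adjusted p = 0.0178, rho = -0.65 with a permutation p of 0.00429), -0.57 with BMP4 and -0.52 with BMP6, and only the first of these was called. By the _s_at probe set, r was 0.83 with TGFB1 (permutation p = 2e-05, adjusted p = 0.00018), 0.84 with BMP4 (permutation p = 1e-05, adjusted p = 0.00012) and 0.74 with BMP6 (permutation p = 0.00043, adjusted p = 0.00258). The rho values by the _s_at probe set were 0.79, 0.85 and 0.78, with permutation p-values of 0.00017, 6e-05 and 0.00032. Its r with BMP4 was 0.75 within normal and 0.92 within increased ALP. With that probe set, 7 of 36 pairs (19.4%) were called, all positive, the smallest at r = 0.72. The share of all gene pairs at that r was not computed, while 1.52% of them reached the lower absolute r of 0.68. The _s_at probe set was substituted after its values had been seen.

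Measures of array quality moved with the SMAD3 and SMAD6 probe sets. The _at probe set of SMAD6 correlated with the spread of the array at r = -0.84 (permutation p = 1e-05, adjusted p = 0.00042 over 42 relations) and with BioB at 0.78 (permutation p = 4e-05, adjusted p = 0.00084). The SMAD3 probe sets stood at -0.72 and -0.78 with the spread and at 0.66 and 0.71 with BioB. The _s_at probe set of SMAD6 stood at 0.31 with the spread and -0.11 with BioB, and for TGFB1, BMP4 and BMP6 no relation with a quality measure was called, with TGFB1 at 0.53 and BMP4 at 0.46 with the spread. In all, 7 of 42 relations (16.7%) were called, while 13.2% of all tested probe sets were as closely related to the spread, 9.54% to BioB and 5.62% to the actin difference. With the spread of the array taken out of every member by regression, TGFB1 and BMP4 stood at r = 0.86, BMP4 and BMP6 at 0.83, TGFB1 and BMP6 at 0.75 and TGFB2 and SMAD9 at 0.69, while TGFB1 and the _at probe set of SMAD6 stood at -0.50 and were not called (adjusted p = 0.232).

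**Figure D4:**
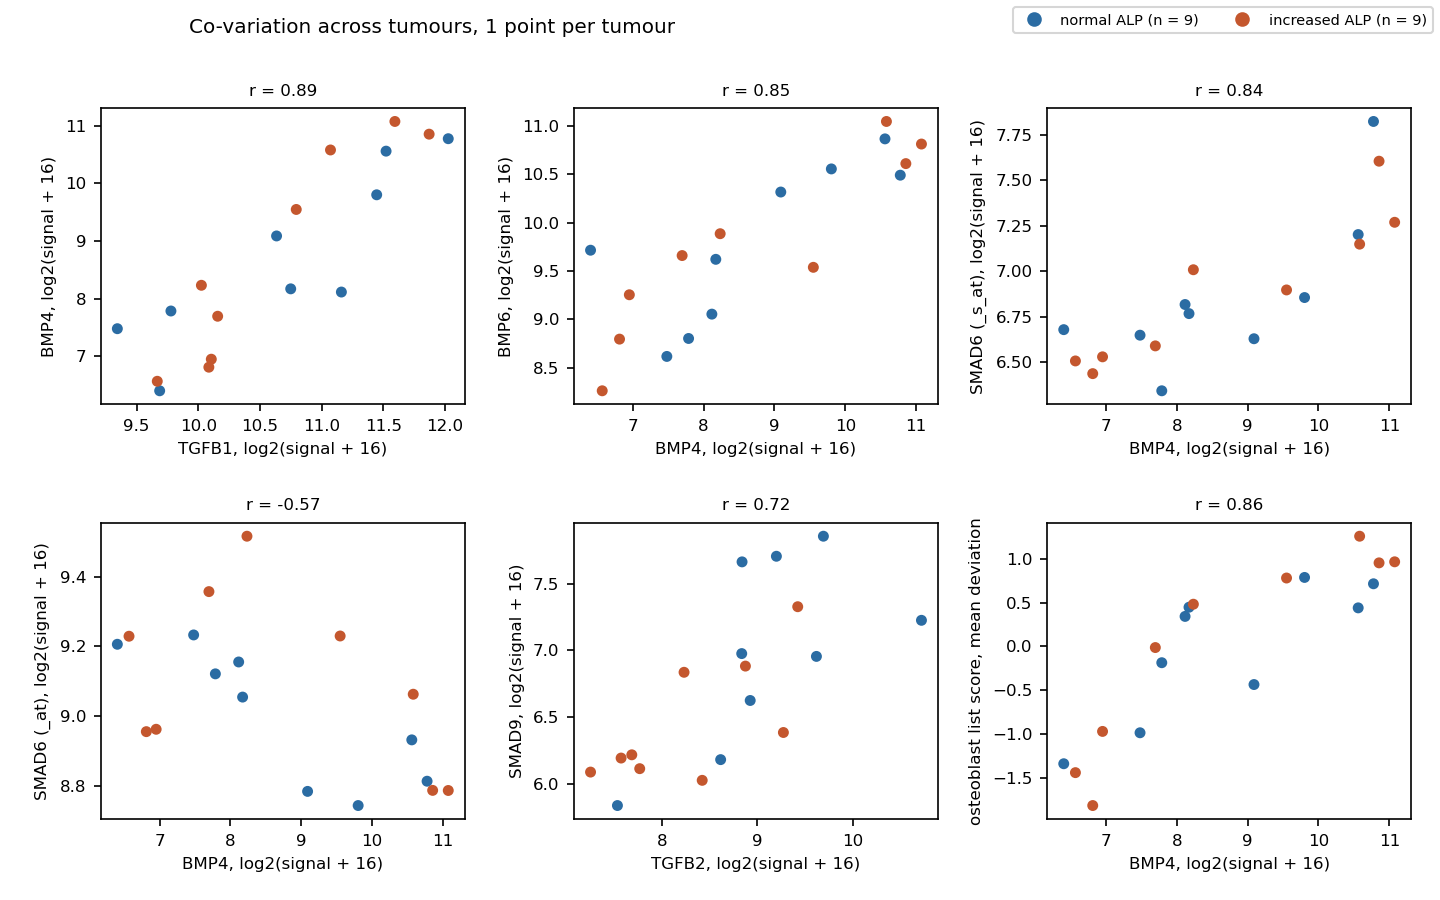
Pairs of measures across tumours, 1 point per tumour (blue, normal ALP; orange, increased ALP), with levels as log2(signal + 16), the osteoblast score as the mean deviation of 13 marker genes from their means over all tumours, and r over all 18 tumours above each panel. The first 3 panels and the last rise from lower left to upper right with both groups mixed along the line, the panel of BMP4 against the _at probe set of SMAD6 falls, and TGFB2 against SMAD9 rises with r = 0.72.

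Of the other pathway genes, those that moved with the trio were mostly modulators and a BMP target. Over 504 relations between 9 members and 56 genes, 16 (3.17%) were called, 7 positive and 9 negative, while 1.22% of relations between all other tested genes and these pathway genes were as close. BAMBI, a pseudoreceptor that damps BMP and TGF-beta signals, correlated with BMP4 at r = 0.89 (permutation p = 2e-05, adjusted p = 0.0101, rho = 0.88 with a permutation p of 3e-05), with BMP6 at 0.83 and with TGFB1 at 0.79. ID1, a classical target of BMP signals, correlated with BMP4 at 0.78 (permutation p = 0.00015, adjusted p = 0.0126, rho = 0.79 with a permutation p of 0.0002), with BMP6 at 0.75 and with TGFB1 at 0.72. TWSG1, which binds BMPs, correlated with BMP4 at 0.70. These are the 7 positive relations. Of the 7 measured genes induced by BMP signals, ID1 was the only one called with any of the trio. MSX2 ran the other way without being called, at -0.53 with BMP4 and -0.58 with TGFB1, and HEY1 stood at 0.60 with BMP4 (adjusted p = 0.0854 over the permutation tests).

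Called negative relations joined BMP4 with the matrix protein gene ASPN at -0.83, the receptor gene ACVRL1 at -0.78, the contractile gene TAGLN at -0.77, ENG at -0.76 and ACVR2A at -0.69. TGFB1 stood at -0.76 with LTBP4, a latent TGF-beta binding protein, BMP6 at -0.75 with ACVR2A, SMAD9 at -0.75 with ENG, and SMAD3 at -0.70 with TWSG1. ACVRL1 and ENG are known mainly from endothelial cells and TAGLN from smooth muscle. The r of SMAD9 with ENG was -0.58 without the 2 tumours farthest in SMAD9.

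Marker lists of cell types moved with the same trio. A list score is the mean deviation of the list's measured genes from their means over all tumours, and the members are in no list. Over 117 relations of 9 members with 13 lists, 23 (19.7%) were called, 10 positive and 13 negative, against 7.18% of relations of all other tested genes. Without increased ALP replicate 9 there were 14, and 14 with the spread of the array taken out. BMP4 followed the osteoblast score most closely, with r = 0.86 (permutation p = 3e-05, adjusted p = 0.00351) and rho = 0.91 (permutation p = 2e-05), and r was 0.84 without the 2 tumours farthest in BMP4, 0.78 within normal and 0.91 within increased ALP. TGFB1 stood at 0.77 (permutation p = 0.00024, adjusted p = 0.00585) and BMP6 at 0.74 (permutation p = 0.00056, adjusted p = 0.0078), with rho of 0.77 and 0.76. The share of other tested genes that were as close to the osteoblast score as the weakest called relation was 10.2%. BMP6 was at 0.49 within normal and 0.90 within increased ALP.

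Within the osteoblast list BMP4 was positively related to 12 of 13 genes, most to DMP1, a mineralisation gene of osteocytes, at r = 0.83. The exception was COL1A1, at -0.49, and it was also the lowest gene of the list for TGFB1 (-0.51) and BMP6 (-0.54). The osteoclast score, of 6 measured genes of 10, was related to TGFB1 at 0.80, BMP4 at 0.79 and BMP6 at 0.62. In each case ACP5, the tartrate-resistant phosphatase of osteoclasts, was the closest gene, at 0.83, 0.84 and 0.65. For each, 5 of the 6 genes were positively related, and TNFRSF11A ran the other way, at -0.16, -0.30 and -0.19. BMP6 stood at 0.33 within normal and 0.93 within increased ALP for this score, and lost its call in 9 of 18 fits with 1 array left out and under rank correlation (adjusted p = 0.0791 over the permutation tests). OCSTAMP, DCSTAMP, CALCR and CKB were too dim or had no probe set named for them, and 9.92% of other genes were as close to this score. The osteoblast and osteoclast scores themselves correlated at 0.85 (permutation p = 2e-05), so their relations to the trio cannot be told apart. The fibroblast score, of 10 genes, ran against the trio, at -0.65 with TGFB1 and -0.78 with both BMP4 and BMP6, and 10.8% of other genes were as close to it. The fibroblast score also ran against the osteoblast score, at -0.70 (permutation p = 0.00189), so their relations to the trio cannot be told apart either. COL3A1 was the lowest fibroblast gene for each of the trio. Only 1 of the 10 genes, PDGFRA, was positively related, at 0.23 with TGFB1, 0.35 with BMP4 and 0.14 with BMP6. The relation of TGFB1 to the fibroblast score lost its call in 5 of 18 fits with 1 array left out.

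With the osteoblast score taken out of every member by regression, TGFB1 and BMP4 stood at r = 0.69 (permutation p = 0.00209, adjusted p = 0.0188) and BMP4 and BMP6 at 0.63 (permutation p = 0.00537, adjusted p = 0.0387). TGFB1 and BMP6 stood at 0.48, which was not called (adjusted p = 0.162), and TGFB2 and SMAD9 at 0.72. SMAD6 by its _at probe set then stood at -0.80 with TGFB1 (permutation p = 6e-05, adjusted p = 0.00216) and at -0.74 with BMP4 (permutation p = 0.00049, adjusted p = 0.00828), the latter called only here and without increased ALP replicate 2. The score ran from -1.33 to 0.79 with normal and from -1.81 to 1.26 with increased ALP, so both groups covered most of its range.

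**Figure D5:**
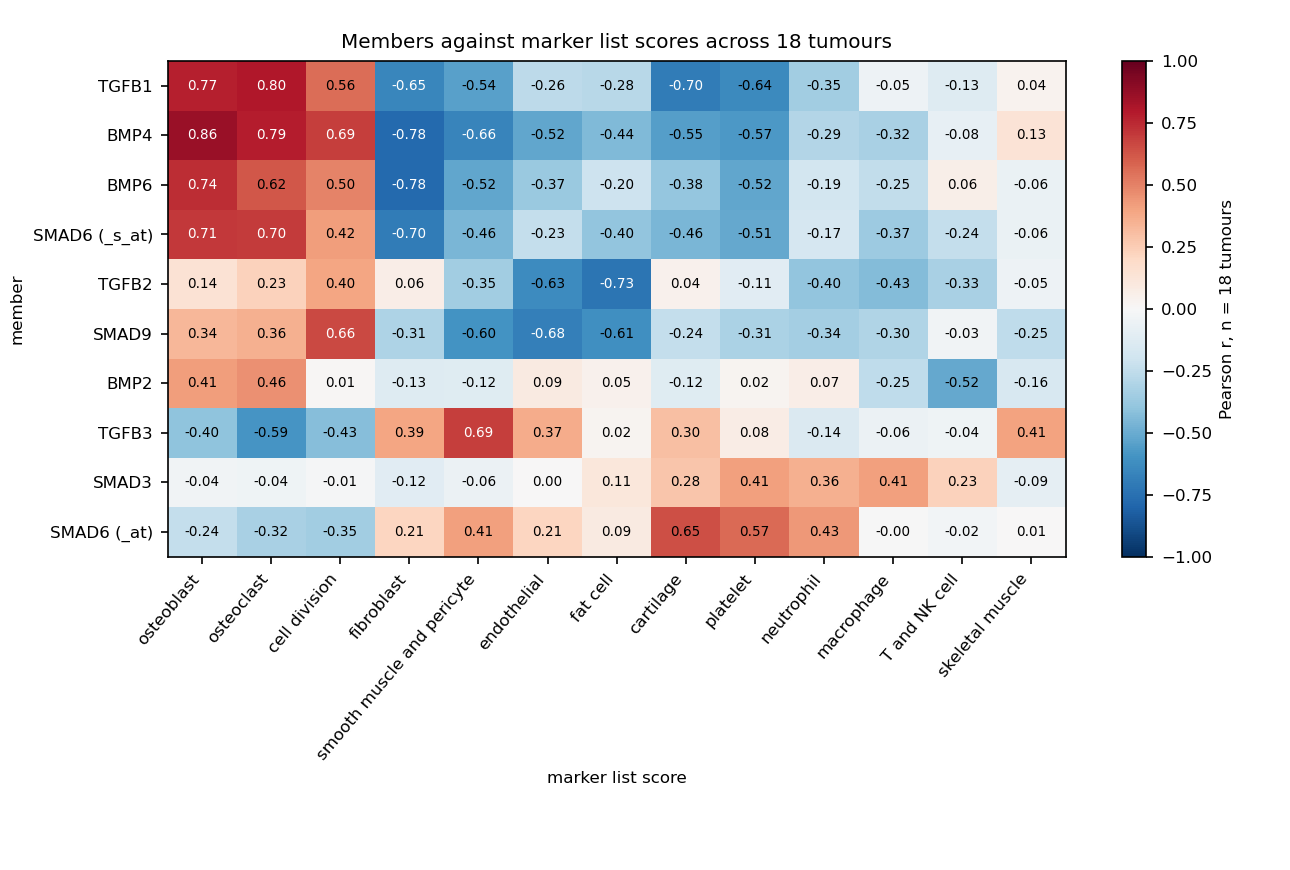
Pearson's r between members (rows) and the scores of 13 marker lists (columns) across 18 tumours, with the colour scale from -1 to 1. The rows of TGFB1, BMP4, BMP6 and the _s_at probe set of SMAD6 are red at the osteoblast and osteoclast columns, with r from 0.62 to 0.86, and blue at the fibroblast column, while TGFB2 and SMAD9 are blue at the endothelial and fat cell columns, with r from -0.73 to -0.61.

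Other members followed other lists. TGFB2 ran against the fat cell score, with r = -0.73 (permutation p = 0.0006, adjusted p = 0.0078), and against the endothelial score, with -0.63, although the latter was -0.41 without the 2 tumours farthest in TGFB2 and so rested on them. SMAD9 ran against the endothelial score at -0.68 (permutation p = 0.00168, adjusted p = 0.0153), the fat cell score at -0.61 and the smooth muscle and pericyte score at -0.60, and with the cell division score at 0.66. With 1 array left out in turn, the relation of SMAD9 to the smooth muscle and pericyte score lost its call in 16 of 18 fits (adjusted p up to 0.132 over the permutation tests), that to the fat cell score in 6 and that of TGFB2 to the endothelial score in 6. As close to these scores were 9.92% of other genes for the endothelial, 3.03% for the fat cell, 11.9% for the smooth muscle and pericyte and 12.4% for the cell division score. All 14 endothelial markers were measured and all 14 were negatively related to SMAD9. TGFB3 followed the smooth muscle and pericyte score, with r = 0.69 (permutation p = 0.00139, adjusted p = 0.0148), positively for all 6 measured genes and most for MYH11, the smooth muscle myosin, at 0.65. Over 10 other settings this r was as low as 0.47, and the call was lost in 1 of them (adjusted p up to 0.157 over the permutation tests). The relation of TGFB3 to the osteoclast score, -0.59, was -0.39 without the 2 tumours farthest in TGFB3 and rested on them. It lost its call in 16 of 18 fits with 1 array left out. BMP4 also followed the cell division score at 0.69. It ran against the smooth muscle and pericyte score at -0.66 and the platelet score at -0.57, and TGFB1 ran against the cartilage score at -0.70 and the platelet score at -0.64. The relation of BMP4 to the platelet score lost its call in 13 of 18 fits with 1 array left out and in 5 of 10 other settings (adjusted p up to 0.318 over the permutation tests). The background shares were 5.43% for cartilage and 9.11% for platelets. The platelet score rested on 3 genes of 5, without PF4 and GP1BA. SMAD6 by its _at probe set followed the cartilage score at 0.65, and by its _s_at probe set it stood at -0.46. For BMP2 and SMAD3 no relation to a list was called.

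The fat cell score, against which TGFB2 and SMAD9 ran, was itself higher on average with increased ALP, where both genes were lower on average. It ran from -1.51 to 0.67 with normal and from -0.45 to 2.49 with increased ALP, with means of -0.39 and 0.39, over 5 measured genes of 9 without LEP, CIDEC, PCK1 and PLIN4. The neutrophil score, of 7 genes of 9, had means of -0.35 and 0.35, and the endothelial score means of -0.16 and 0.16. Their part in the differences of TGFB2 and SMAD9 was not tested.

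In the osteoblast list, ALPL encodes the bone and liver form of the enzyme whose serum concentration defined the groups. Its mRNA is not compared between the ALP groups here. BMP4 correlated with the mRNA of ALPL at r = 0.76 (permutation p = 0.00014, adjusted p = 0.0014 over 10 relations) and rho = 0.86 (permutation p = 3e-05). The r was 0.71 without the 2 tumours farthest in BMP4, 0.75 within normal and 0.78 within increased ALP. TGFB1 stood at 0.61 (permutation p = 0.00556, adjusted p = 0.0185, rho = 0.72), BMP6 at 0.57 (permutation p = 0.0127, adjusted p = 0.0317, rho = 0.65) and the _s_at probe set of SMAD6 at 0.68 (permutation p = 0.00311, adjusted p = 0.0156, rho = 0.84). BMP2 stood at 0.42 and was not called (adjusted p = 0.168 over the permutation tests). BMP6 was related to ALPL at 0.26 within normal and 0.75 within increased ALP. Among all other tested genes, 7.81% were as closely related to ALPL as the weakest called member. ALPL is in the osteoblast list, so these relations are part of those described for the list.

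The genes most like each member across tumours were named by the 3 highest r among 10716 tested genes, as a description. For TGFB1 they were TMSB10, an actin-binding thymosin, at 0.92, ILDR2 at 0.89 and BMP4 at 0.89. For BMP4 they were PLA2G5, a secreted phospholipase, at 0.94, RPGRIP1L, a protein of the primary cilium, at 0.94 and the kinase gene DAPK2 at 0.92. For BMP6 they were DSTN (destrin), which severs actin filaments, at 0.91, SUV39H2, a histone methyltransferase, at 0.90 and LIFR, a cytokine receptor, at 0.85. BMP4 had more close companions than any other member, with an absolute r of at least 0.8 for 1.42% of the tested genes, against 0.784% for TGFB1 and 0.373% for BMP6.

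For TGFB2 the closest were RPRD2 at 0.79, EPRS1, a transfer RNA synthetase, at 0.78 and MED14, a subunit of the Mediator complex, at 0.77. For SMAD9 they were the RNA helicase DDX6 at 0.84, MCM7, part of the replicative helicase, at 0.83 and STX18 at 0.81. TGFB3 was closest to RNF152 at 0.84, the phosphodiesterase gene PDE4D at 0.78 and UFSP2 at 0.78, and BMP2 to TMEM147 at 0.78, KHDRBS3 at 0.73 and JOSD2 at 0.70. BMP2 had 0.0% of tested genes at an absolute r of at least 0.8, so no gene followed it as closely as BMP4 was followed. SMAD3 was closest to CELSR2 at 0.83, KIAA1522 at 0.82 and LOC486445 at 0.81, whose own SDs were at most 0.15. SMAD6 by its _at probe set was closest to the corepressor gene NCOR1 at 0.88, LOC610887 at 0.88 and MSI1 at 0.87.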

How the data were processed

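Gene expression of 18 canine osteosarcomas was measured on 1-colour Affymetrix arrays from 10 µg of total RNA per tumour. The deposited values are log2 signals, per the values' range; MAS5 is named in the submitters' processing notes, with no version, and the summary and scaling steps are not given in the sources used here. Detection calls were not used. Values were turned back to linear signals, 16 was added and log2 was taken. Of 43035 probe sets, 111 controls were set aside, and 25754 with a mean at or above the 40th percentile were tested.

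Gene names came from the platform annotation, and the identifiers of all 10 members matched RefSeq's gene table (assembly UU_Cfam_GSD_1.0, used for names and neighbours only). The members and lists were chosen with earlier results of these data known.

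Groups were compared with limma 3.58.1 in R 4.3.3 (lmFit, eBayes with trend, two-sided, Benjamini-Hochberg over all probe sets), and single probe sets by exact permutation. Correlations used Python 3.11.15, SciPy 1.17.1 and 100000 two-sided permutations, adjusted within each family, and exact permutations within groups. The fit was tested on simulated data. Named were all members, up to 4 genes of smallest p per pathway list, genes needed to describe a list's spread, and the 3 genes most like each member. Alternatives were an offset of 1 or 64, filters at the 60th percentile or absent, quantile or 75th percentile scaling, other variance models, array weights, a block for tissue number, the actin covariate, gene means over probe sets, deviations from group means, rank correlation, and arrays left out.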

Additional observations from a re-analysis of the deposited data

How the results depend on the processing

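No member was called between the ALP groups under any of the 12 other settings or with any 1 array left out, and neither was any other probe set tested in limma. Over the 12 other settings BMP4 ran from -0.094 to 0.62. The median difference of the 14 member probe sets was 0.02 in the main fit and 0.14 with the actin covariate. Differences that turned sign were at most 0.24 from 0 in the main fit. With the actin covariate TGFB1 stood at 0.38, BMP6 at 0.14, the _s_at probe set of TGFB3 at 0.23, SMAD6 (_at) at -0.077 and SMAD3 at -0.026 and -0.064. BMP6 stood at 0.0025 with quantile and 0.025 with 75th percentile scaling, BMP4 at -0.094 with array weights, and, without increased ALP replicates 3 and 6, TGFB1 at 0.036 and SMAD6 (_at) at -0.0029. On leaving out single arrays TGFB1 ran from -0.28 to 0.057, BMP6 from -0.18 to 0.17, BMP4 from -0.28 to 0.28 and SMAD6 (_s_at) from -0.064 to 0.15. Tumours of the 2 groups with the same tissue number were not most alike. Their deviations from the group means correlated at -0.16 to 0.27, and 0 of 9 matched best with their own number. That cannot show whether same-numbered tumours were matched or handled together. With the number as a block 0 of 25754 probe sets were called in limma, with a smallest adjusted p of 0.0684, against 0.608 without it. At an unadjusted p under 0.05 there were 4 of 14 member probe sets, 2 higher and 2 lower, against 1677 of all 25754.

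Pairs of members called ranged from 4 to 7 over the other settings and from 5 to 8 with single arrays left out, and the 5 reported pairs were among them in each of the latter. TGFB1 with SMAD6 turned to 0.49 with the mean over probe sets and to 0.83 by the _s_at probe set, and SMAD6 with the cartilage score to -0.11 and -0.46. Relations to marker lists ranged from 14 to 26 with single arrays left out, and were 14 with array spread taken out and 19 to 26 otherwise. Settings that used the _s_at probe set of SMAD6 or took out the osteoblast score or the array spread were chosen after seeing the data. The causes of these changes were not tested.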
